A study of Mus musculus with 2 samples.

Results

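The genes described here, which mark megakaryocytes and platelets, are Itga2b, Itgb3, Gp1ba, Gp1bb, Gp9, Gp5, Vwf, Pf4 and Treml1. They were chosen by name for their known roles, not by their values, though with earlier results of these data known. All 9 were found among the 43346 genes of the tables, of which 21474 are protein-coding. The cells were of the MEL line, an established mouse erythroleukemia line stalled at a red cell precursor stage that makes hemoglobin once dimethyl sulfoxide (DMSO) is added. Both libraries, made from polyadenylated RNA and read from 1 end, came from MEL cells kept in 2% DMSO for 5 days. They formed 1 group of 2 biological replicates by the labels, both listed under 1 cell sample, so whether the cultures were separate is not known. No untreated cells were analysed here, so the values describe treated cells and hold no response to DMSO.

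Megakaryocytes are the bone marrow cells that shed platelets, and they share a precursor with red cells. Platelets stop bleeding through a pair of surface complexes. The GPIb-IX-V complex catches von Willebrand factor on a damaged vessel wall, and the integrin αIIbβ3 then binds fibrinogen and links platelets to each other. Red cell and megakaryocyte precursors share the transcription factor GATA1, and ETS family factors such as FLI1 act with it on megakaryocyte genes. The question put to these libraries was how far platelet genes are expressed in an erythroid line.

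Replicate 1 held 26149725 estimated reads and replicate 2 held 14149299. Levels are given in TPM, which corrects reads for transcript length and for the depth of the library, and a gene was called detected at 1 TPM or more in both libraries. All 12 erythroid markers looked up were detected, against 45.5% of protein-coding genes. Their summed levels were 21007 TPM in replicate 1 and 35629.5 TPM in replicate 2, as the label of an erythroid line implies. In bulk RNA, a few cells with many copies and many cells with few copies cannot be told apart, which holds for every level below.

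Promoter sequence was matched for 7 of the 9 genes, all but Itgb3 and Vwf, in RefSeq on GRCm38.p6. Each window ran from 250 bases before the gene start to 50 bases after it. It was searched on both strands for 4 GATA words and 2 ETS words. The first GATA word was AGATAA and its variant with another last base was AGATAG, while the forms that start with T were TGATAA in the first case and in the other TGATAG. The ETS words were AGGAAG for one kind of site and for the other CGGAAG. No GATA match overlapped an ETS match in these windows. The windows of 4 genes are printed here 5′ to 3′ on the gene's strand with the matches in capitals: Itga2b, the most abundant of the genes (chr11:102469834-102470133, minus strand); Gp1ba, with 3 GATA words (chr11:70638872-70639171, plus strand); Pf4 (chr5:90772185-90772484, plus strand); and Treml1, with no reads (chr17:48359666-48359965, plus strand).
Itga2b promoter: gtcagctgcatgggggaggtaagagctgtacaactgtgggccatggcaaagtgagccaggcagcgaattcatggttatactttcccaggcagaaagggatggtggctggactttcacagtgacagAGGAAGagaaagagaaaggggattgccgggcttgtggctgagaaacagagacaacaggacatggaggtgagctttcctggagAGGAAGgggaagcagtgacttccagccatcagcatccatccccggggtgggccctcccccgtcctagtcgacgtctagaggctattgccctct
Gp1ba promoter: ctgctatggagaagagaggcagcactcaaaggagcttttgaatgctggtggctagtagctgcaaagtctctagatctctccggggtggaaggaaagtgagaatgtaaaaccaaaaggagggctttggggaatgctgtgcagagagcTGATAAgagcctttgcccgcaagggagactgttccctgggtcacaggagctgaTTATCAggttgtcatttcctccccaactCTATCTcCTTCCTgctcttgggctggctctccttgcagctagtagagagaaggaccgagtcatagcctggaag
Pf4 promoter: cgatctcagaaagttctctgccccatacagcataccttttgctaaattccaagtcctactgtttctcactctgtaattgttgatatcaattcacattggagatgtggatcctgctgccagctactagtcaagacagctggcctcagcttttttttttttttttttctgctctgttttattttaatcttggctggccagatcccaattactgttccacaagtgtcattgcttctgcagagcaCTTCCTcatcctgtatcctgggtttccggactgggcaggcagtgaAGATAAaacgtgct
Treml1 promoter: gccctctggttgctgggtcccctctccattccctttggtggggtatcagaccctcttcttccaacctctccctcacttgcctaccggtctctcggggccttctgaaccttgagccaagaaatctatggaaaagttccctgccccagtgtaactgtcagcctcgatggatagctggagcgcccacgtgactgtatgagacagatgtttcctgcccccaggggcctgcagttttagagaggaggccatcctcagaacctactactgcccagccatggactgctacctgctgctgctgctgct
The Itga2b window held 2 ETS words and 0 GATA words, the Gp1ba window 3 GATA words and 1 ETS word, and the Pf4 window 1 of each. The Treml1 window held neither kind. Among the windows not printed, Gp5 held 3 GATA words and 1 ETS word, Gp1bb 1 GATA word and 2 ETS words, and Gp9 1 ETS word. A GATA word stood in 4 of the 7 windows, against 30.2% of all 27025 windows of this length searched. An ETS word stood in 6 of 7, against 46.4%, and both kinds in 4 of 7, against 12.8%. These matches describe letters only; they show no binding, and a window without a match says nothing of the factor.

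Of the 9 genes, 6 were detected, 66.7%, against 45.5% of protein-coding genes (9776 of 21474). The median level of the 9 was 2.15 TPM, against 0.60 TPM over all protein-coding genes. Their levels summed to 98.3 TPM in replicate 1 and 193.7 TPM in replicate 2, and Itga2b held 76.0% and 76.9% of those sums. By gene-level TPM the set was uneven: Itga2b stood above the others, though on coding transcripts alone it was 0.966 times the level of Pf4 in replicate 1 and 1.94 times in replicate 2. Another 5 genes were detected, with mean levels from 1.60 TPM for Vwf to 16.9 TPM for Pf4, and Itgb3, Gp1bb and Treml1 were below the limit.

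**Figure D1:**
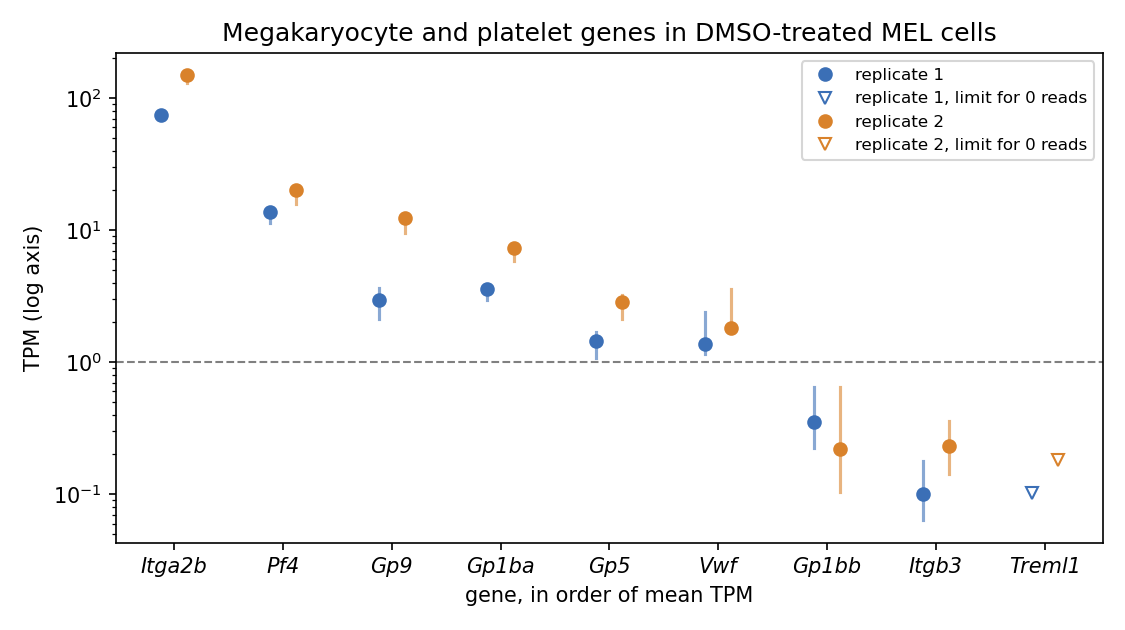
TPM on a log axis of the 9 megakaryocyte and platelet genes in each of the 2 libraries, with 1 point per library and lines for the deposited credibility bounds of the posterior mean TPM. Itga2b lies at 74.7 and 149 TPM, Treml1 has no reads, and the points of Itgb3 and Gp1bb stay below 1 TPM.

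The 2 subunits of the platelet fibrinogen receptor differed widely. Itga2b (chr11:102453297-102470122, minus strand), which encodes integrin αIIb or CD41, stood at 74.7 TPM in replicate 1 and 149 TPM in replicate 2, from 1841 and 2754 reads. Its mean of 112 ± 52.5 TPM (SD, n = 2) ranked it 749th of the protein-coding genes, at the 96.5th percentile. CD41 also marks early blood progenitors, not megakaryocytes alone. Itgb3 (chr11:104608000-104670476, plus strand), which encodes the β3 chain that αIIb needs to reach the cell surface, stood at 0.10 TPM and 0.23 TPM, or 0.165 ± 0.0919 TPM (SD, n = 2). Those levels rest on 14 reads in replicate 1 (exact Poisson 95% interval 7.65 to 23.5) and 18 reads in replicate 2 (10.7 to 28.4); such intervals and limits cover counting error only. Both libraries thus placed the α chain far above the β chain: the level of Itga2b was 747 times that of Itgb3 in replicate 1 and 648 times in replicate 2. On protein-coding transcripts alone the ratio was 132 in replicate 1 and 170 in replicate 2.

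Of 14 other integrin subunits looked up, 9 were detected (64.3%), against 45.5% of protein-coding genes, with a median of 2.14 TPM, against 0.60 TPM. Itgb1, the β1 chain shared by many adhesion receptors, stood at 236 TPM and 204 TPM in replicates 1 and 2, which is 2356 and 889 times the level of Itgb3. Itgav encodes αv, the other known partner of β3, and its 13.4 TPM and 14.0 TPM were 134 and 61 times the level of Itgb3. Itga4, the α4 chain of the VLA-4 receptor, stood at 26.0 and 13.7 TPM, and Itgb2, the β2 chain of leukocyte integrins, at 14.9 and 17.0 TPM. The lowest were Itgax, an αx chain of myeloid cells, at 0.02 TPM in replicate 1 and no reads in replicate 2, and Itgb8, with no reads in either library. Both partners of β3 were therefore detected, while β3 was below the limit.

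The 4 genes of the GPIb-IX-V complex were at unequal levels. Gp1ba (chr11:70639122-70642036, plus strand) encodes GPIbα, the chain that holds the von Willebrand factor site, and stood at 3.60 and 7.31 TPM in replicates 1 and 2 from 218 and 244 reads. Gp9 (chr6:87778072-87779768, plus strand) encodes GPIX, a small chain needed to assemble the complex, and stood at 2.96 and 12.3 TPM from 55 and 129 reads. The ranges of these 2 genes overlapped, and their order turned round: Gp1ba stood at 1.22 times the level of Gp9 in replicate 1 and 0.595 times in replicate 2. Gp5 (chr16:30307685-30310779, minus strand) encodes GPV, which associates with the complex and is cleaved by thrombin, and stood at 1.44 and 2.85 TPM from 75 and 84 reads. Its level kept a steady proportion to that of Gp1ba, which was 2.50 times higher in replicate 1 and 2.56 times in replicate 2.

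Gp1bb (chr16:18620317-18622403, minus strand) encodes GPIbβ, the chain bound to GPIbα by a disulfide bond. It stood at 0.35 TPM in replicate 1 and 0.22 TPM in replicate 2, or 0.285 ± 0.0919 TPM (SD, n = 2), from 15.4 and 5.37 estimated reads. Gp1ba was 10.3 and 33.2 times higher than Gp1bb, and Gp9 was 8.46 and 55.8 times higher. The Gp1bb value is uncertain, because 1902 of its bases overlap Sept5, a septin gene on the same strand that stood at 37.4 and 47.1 TPM, so reads there are split by estimation. It was the only one of the 9 genes for which the deposited posterior SD of the count was above 0 (0.65 and 0.67 reads), and its transcript Gp1bb-202 is 1847 bases long in the deposited tables but 1086 in GENCODE M21.

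Vwf (chr6:125546774-125686679, plus strand) encodes von Willebrand factor, the ligand of GPIbα that megakaryocytes and endothelial cells make. It stood at 1.38 and 1.82 TPM in replicates 1 and 2, from 82 and 110 reads. Transcripts annotated as coding stood at 0.37 and 0.69 TPM, or 26.9% and 38.0% of the gene's TPM, but they held 44.9% and 75.9% of its reads. The full-length transcript Vwf-203, 8834 bases long, stood at 0.12 and 0.69 TPM with 26.2 and 83.5 estimated reads. The posterior SD of those counts was 8.31 and 22.4 reads. Vwf-203 held 8.94% and 38.0% of the gene's TPM, but 3.38% and 11.4% by posterior mean. The division of reads among the overlapping Vwf transcripts, and so the coding share, is therefore uncertain. Vwf-210, annotated as subject to nonsense-mediated decay and spanning exons 34 to 52 of 52, held 34.1% and 33.1% of the level. Counted on coding transcripts alone, Vwf fell under the limit and 5 of the 9 genes were detected, against 42.6% of protein-coding genes.

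Since Vwf also marks endothelium, 12 endothelial markers were looked up. Of these, 1 was detected (8.33%), against 45.5% of protein-coding genes. It was Pecam1, an adhesion molecule that platelets and leukocytes also carry, at 5.59 and 6.06 TPM. Esam stood at 0.52 and 0.86 TPM and Flt1, a VEGF receptor, at 0.26 and 0.15 TPM. Cdh5, Tie1 and Cldn5, of which the first is VE-cadherin of endothelial junctions, had no reads in either library. The 12 summed to 6.58 TPM in replicate 1 and 7.37 TPM in replicate 2.

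Pf4 (chr5:90772435-90773383, plus strand) encodes platelet factor 4, a chemokine stored in platelet α granules. It was the second highest of the 9 at 13.7 and 20.1 TPM in replicates 1 and 2, from 180 and 149 reads, or 16.9 ± 4.50 TPM (SD, n = 2). The range of Itga2b lay above that of Pf4, with a mean 6.62 times as high. On coding transcripts alone, however, Itga2b stood at 13.2 and 39.0 TPM, so most of this gap rests on its non-coding transcripts. Treml1 (chr17:48359916-48367176, plus strand) encodes a receptor of the α granule membrane that reaches the surface on activation. It had no reads in either library, which allows at most 0.103 TPM in replicate 1 and 0.182 TPM in replicate 2 (3 reads).

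By mean level the order was Itga2b, Pf4, Gp9, Gp1ba, Gp5, Vwf, Gp1bb, Itgb3 and Treml1. The ranges of 3 neighbouring pairs overlapped, so their order is not settled: Gp9 with Gp1ba, Gp5 with Vwf, and Gp1bb with Itgb3. The ranges of the other neighbours did not overlap, with means 2.22-fold apart for Pf4 over Gp9, 2.54-fold for Gp1ba over Gp5, and 5.61-fold for Vwf over Gp1bb. With 2 libraries of 1 group, these gaps have no test.

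The transcripts of Itga2b differ from what the gene level shows. Of transcripts, 10 are listed, of which 9 had reads and 1, Itga2b-201, is coding; the other 9 are annotated as processed transcripts without a protein. Itga2b-201 (3437 bases, 30 exons) stood at 13.2 and 39.0 TPM in replicates 1 and 2, from 1089 and 1814 estimated reads. It held 59.2% and 65.9% of the gene's reads but 17.7% and 26.2% of its TPM. Non-coding transcripts, which are shorter and so gain more TPM per read, held the remaining 82.3% and 73.8% of TPM.

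The transcript with the highest level was Itga2b-205, of 427 bases in 3 exons (chr11:102467800-102470122, minus strand, GRCm38). It is printed in the sense direction from the GENCODE M21 transcripts, as it carries the largest part of the Itga2b level. Its first exon already stands in the Itga2b promoter window, so the 247 bases of the other exons are shown, with those that also lie in exons of the coding transcript in capitals.
Itga2b-205, exons 2 and 3: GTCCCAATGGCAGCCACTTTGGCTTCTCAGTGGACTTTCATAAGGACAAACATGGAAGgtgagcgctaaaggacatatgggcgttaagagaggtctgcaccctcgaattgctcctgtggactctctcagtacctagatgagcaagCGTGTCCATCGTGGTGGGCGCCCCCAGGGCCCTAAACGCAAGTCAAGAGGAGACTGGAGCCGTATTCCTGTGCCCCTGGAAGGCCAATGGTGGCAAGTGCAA
Its first exon of 180 bases lies 239 to 60 bases upstream of the start of Itga2b-201, inside that window, and holds the upstream one of its ETS words. In exons 2 and 3, 160 bases are shared with the coding transcript and 267 bases of the whole are not, and it does not hold the start codon. It stood at 40.2 and 41.7 TPM in replicates 1 and 2, from 373 and 219 reads with a posterior SD of 2.75 and 4.58 reads. This was 53.8% and 28.0% of the gene's TPM, but 20.3% and 7.94% of its reads. The level of Itga2b-205 was nearly equal in both libraries, while that of the coding transcript was higher in replicate 2.

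**Figure D2:**
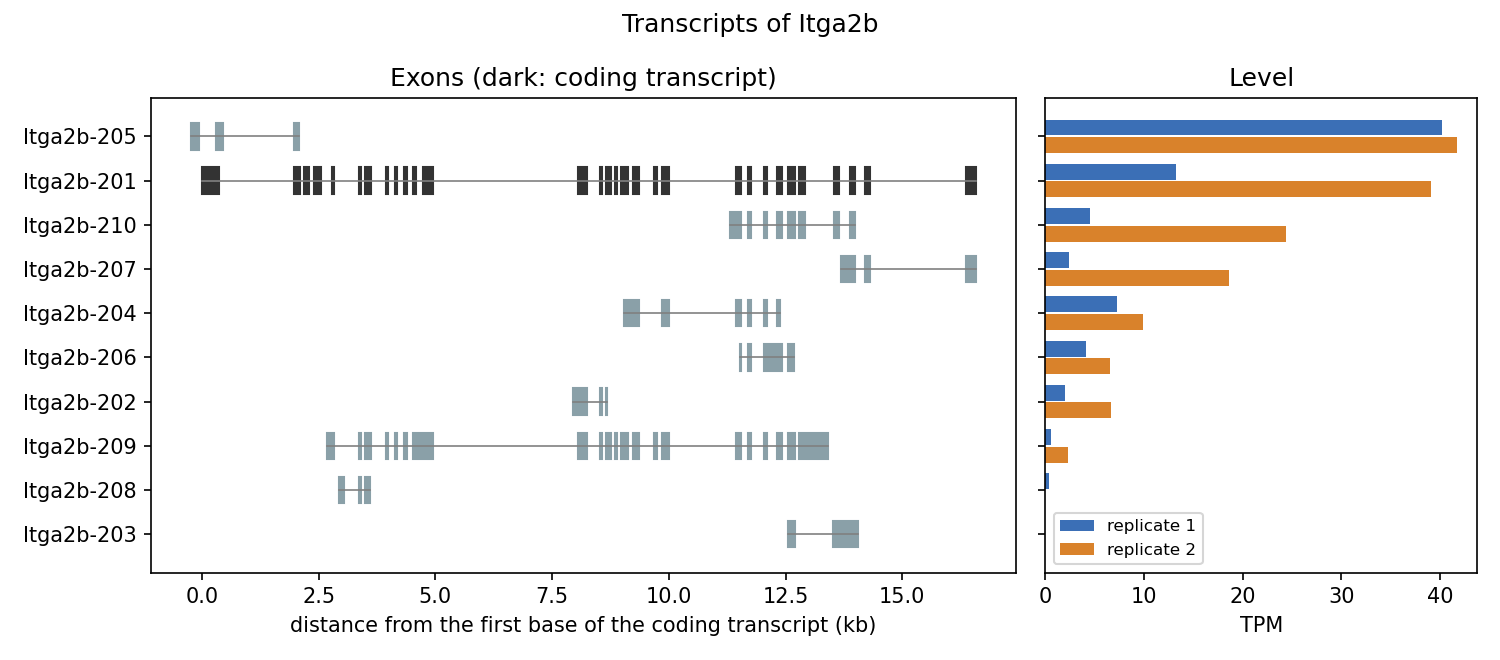
Left, exons of each Itga2b transcript against distance in kb from the first base of the coding transcript, which is drawn dark; right, TPM of each transcript with 1 bar per library. Itga2b-205 stands at 40.2 and 41.7 TPM, while the coding transcript Itga2b-201 stands at 13.2 TPM in replicate 1 and 39.0 TPM in replicate 2.

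The other non-coding transcripts differed in their ratios between the libraries. Itga2b-210, over exons 21 to 28, stood at 4.52 and 24.3 TPM in replicates 1 and 2, with a log2 read ratio of 2.23, replicate 2 over replicate 1. Itga2b-207, over exons 28 to 30, stood at 2.37 and 18.6 TPM with a ratio of 2.74. Itga2b-204 and Itga2b-206, which overlap the same part of the gene over exons 17 to 24 and 21 to 25, had ratios of 0.25 and 0.46, so the ratios did not follow position. Itga2b-202, over exons 13 to 15, had a ratio of 1.47 and Itga2b-209, over exons 5 to 26, one of 1.70. The ratio of the coding transcript was 1.37 and that of Itga2b-205, at the other end of the gene, -0.14. Most of the difference of Itga2b between the libraries thus came from transcripts other than the most abundant one. How reads were divided among these overlapping transcripts is an estimate, and its part in these ratios was not tested.

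Besides Itga2b, 2 genes of the set had reads on more than 1 transcript: Vwf, on 8 of 12, and Gp1ba, on 2. Gp1ba-202 held 72.8% of the Gp1ba level in replicate 1 and 100% in replicate 2, with Gp1ba-201 holding the rest; both are coding, at 2480 and 2710 bases. Itgb3 carried all its reads on its coding transcript. Pf4, Gp9, Gp5 and Treml1 have 1 listed transcript each.

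A further 91 megakaryocyte and platelet genes were looked up to place the 9, and 52 were detected (57.1%), against 45.5% of protein-coding genes, with a median level of 2.46 TPM, against 0.60 TPM. Detection varied by role. Transcription factors (14 of 17), integrin activation and signalling (14 of 19) and the platelet cytoskeleton (9 of 13) had median levels of 14.5, 11.4 and 9.58 TPM, and 82.4%, 73.7% and 69.2% of them were detected. Other surface receptors (6 of 20) and granule proteins (6 of 18) had medians of 0.29 and 0.17 TPM, with 30.0% and 33.3% detected, shares below the 45.5% of all protein-coding genes. Most of the regulators, signalling and cytoskeletal genes were thus detected, and most of the receptors and granule genes were not. Some of the detected regulators, Gata1 and Gfi1b among them, also act in red cells, so their detection is not particular to megakaryocytes.

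**Figure D3:**
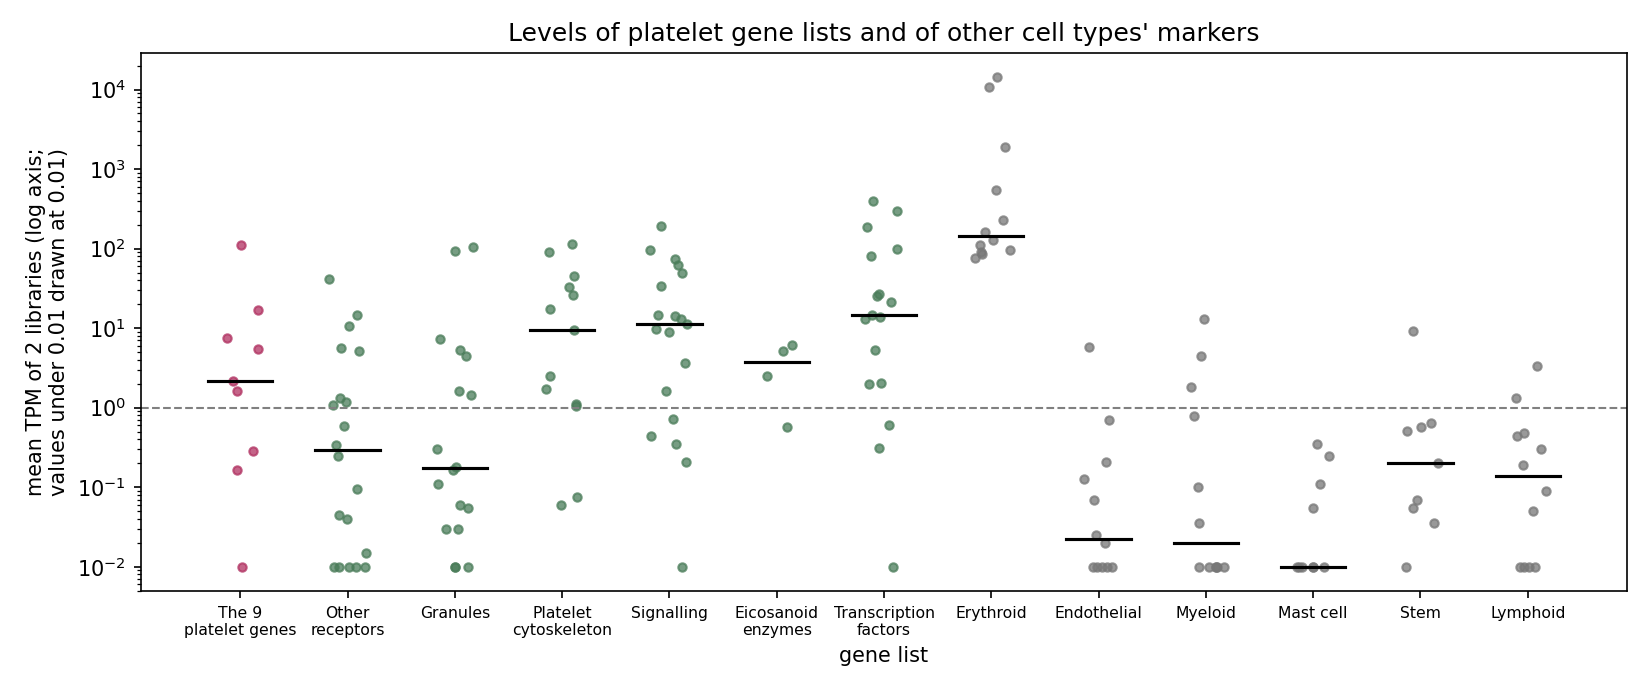
Mean TPM of both libraries on a log axis for each gene of the 9 (left), of the other megakaryocyte and platelet lists and of the marker lists of other cell types, 1 point per gene, with values under 0.01 drawn at 0.01, each list's median as a bar and 1 TPM as a dashed line. The median is 2.15 TPM for the 9 genes, 0.29 TPM for other receptors and 14.5 TPM for transcription factors.

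Among receptors, the highest was F2r, the thrombin receptor PAR1, which mouse platelets lack, at 45.5 and 37.5 TPM in replicates 1 and 2. P2ry1, an ADP receptor, stood at 19.9 and 9.54 TPM, Cd9, a tetraspanin, at 10.9 and 10.1 TPM, and P2rx1, an ATP-gated channel, at 3.31 and 7.99 TPM. Another 4 had no reads in either library: Itga2, the collagen-binding α2 chain; Gp6, the signalling collagen receptor; P2ry12, the ADP receptor that clopidogrel blocks; and Mpig6b, an inhibitory receptor.

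Among granule genes, Srgn, the proteoglycan serglycin that holds Pf4 in granules, stood at 177 TPM in replicate 1 and 29.5 TPM in replicate 2. Tgfb1 stood at 54.7 and 134 TPM. Vipas39 and Nbeal2, both needed to form α granules, stood at 5.68 and 8.98 TPM and at 4.34 and 6.41 TPM. Mmrn1, a factor V carrier, and Sparc had no reads. Vipas39 and Nbeal2, named for ranking among the 4 highest of the list, were among the 6 granule genes detected. The other 12 of the 18 were not.

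In the cytoskeleton list, Tuba4a stood at 73.6 and 156 TPM in replicates 1 and 2, and Myh9, non-muscle myosin, at 53.2 and 127 TPM. Was, an actin regulator of blood cells, stood at 37.1 and 54.2 TPM, and Diaph1, a formin, at 31.2 and 33.9 TPM. The lowest were Tuba8, at 0.15 TPM and no reads, and Mylk, with no reads in replicate 1 and 0.12 TPM in replicate 2. Tubb1, the β1-tubulin of the platelet marginal band, was named after its values were seen and stood at 1.18 and 1.07 TPM.

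Of the genes that switch αIIbβ3 on, Tln1, the talin that binds the β3 tail, stood at 119 and 74.5 TPM in replicates 1 and 2. Fermt3, kindlin-3 of blood cells, stood at 30.6 and 92.8 TPM, and Rap1b, the small GTPase upstream of talin, at 88.2 and 60.6 TPM. Bin2, a BAR domain protein, led the list at 227 and 160 TPM. Lat, an adaptor of collagen receptor signalling, was low at 0.17 and 0.24 TPM, and Gng11 had no reads. Tln1, Fermt3 and Rap1b were therefore detected, as were the β1 and β2 chains above, while the β3 chain was not.

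The 4 eicosanoid enzymes had a median level of 3.8 TPM, against 0.60 TPM over all protein-coding genes. Ptgs1, which starts thromboxane synthesis in platelets, stood at 3.91 and 8.20 TPM in replicates 1 and 2, and Tbxas1, thromboxane synthase, at 1.40 and 3.53 TPM. Pla2g4a, which frees arachidonic acid, stood at 6.26 and 3.99 TPM, and Alox12, platelet 12-lipoxygenase, at 0.22 and 0.93 TPM. Of the 4, 3 were detected (75%), against 45.5% of protein-coding genes.

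The highest transcription factors were Zfpm1, the GATA1 cofactor FOG1, at 276 and 513 TPM in replicates 1 and 2, and Gata1 at 209 and 388 TPM. Tal1 stood at 208 and 167 TPM, and Gfi1b, a repressor needed in both lineages, at 62.0 and 138 TPM. The lowest was Erg, an ETS factor of stem cells and megakaryocytes, with no reads in replicate 1 and 0.02 TPM in replicate 2. The other ETS factors of the list were named after their values were seen: Gabpa stood at 36.3 and 17.3 TPM, Etv6 at 11.2 and 14.6 TPM, Fli1 at 6.01 and 4.71 TPM and Ets1 at 0.44 and 0.76 TPM. Of these 5 ETS factors, 3 were detected, against 45.5% of protein-coding genes.

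The 2 libraries were compared for the 8 genes with a mean of at least 10 reads, as log2 ratios of replicate 2 over replicate 1 scaled by TMM. Of these, 7 were higher in replicate 2, for which the share of all protein-coding genes was not counted. At least 2-fold higher were 3 of the 8, against 14.1% of protein-coding genes. Those were Itga2b at 1.22 (95% counting interval 1.13 to 1.30), Gp9 at 1.84 (1.40 to 2.35) and Vwf at 1.05 (0.63 to 1.49). Ratios of deposited TPM put 2 genes past 2-fold, Gp9 at 2.02 and Gp1ba at 1.00, with Itga2b just under it at 0.99 and Vwf at 0.38. Without a filter on low counts before TMM, 2 genes passed and Vwf had 0.99. The share of all protein-coding genes past 2-fold was not counted in these 2 settings. With the filter and TMM, none of the 8 was at least 2-fold lower, against 14.6% of protein-coding genes. Pf4 differed least, at 0.36 (0.04 to 0.68), and Gp1bb, at -0.80, had an interval from -2.76 to 0.58. The median ratio of the 8 was 0.87, against 0.04 over all protein-coding genes tested.

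Base composition moved with this ratio. Over 8893 protein-coding genes, GC content and the ratio had a Spearman correlation of 0.78, a description across genes of 1 pair of libraries. Median GC content was 56.2% for the platelet genes and 50.6% over all protein-coding genes. With the GC trend removed, 0 of the 8 were at least 2-fold higher, against 5.38% of protein-coding genes. At least 2-fold lower was 1, Gp1bb, against 6.91%. That call is not settled, as it rests on 15.4 and 5.37 estimated reads in replicates 1 and 2. Its GC value also comes from the GENCODE M21 transcript of 1086 bases, not the 1847 bases of the deposited one. With the trend removed, Itga2b had a ratio of 0.45, Gp9 0.96, Vwf 0.43 and Gp5 -0.17. The median was then 0.44, against 0.02 over all genes. The part of GC content in the levels of single genes was not tested.

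**Figure D4:**
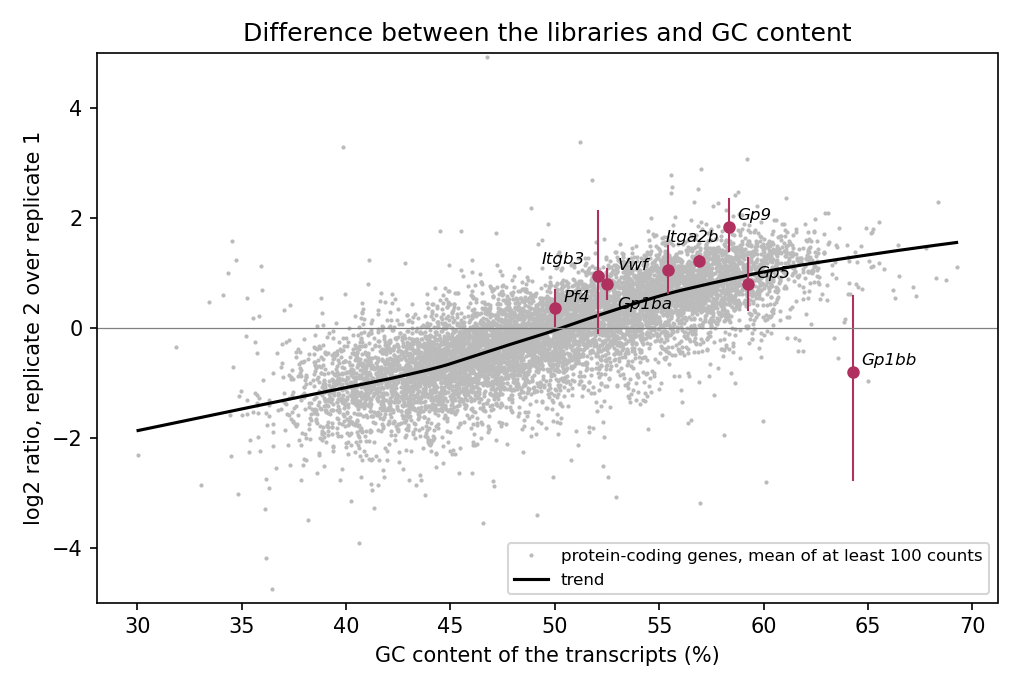
Log2 ratio of replicate 2 over replicate 1 against GC content of the transcripts, with the platelet genes as large points with 95% counting intervals, small points for the other protein-coding genes that averaged 100 counts or more, and the trend as a line. Gp1bb lies under the trend, and Gp9 and Itga2b, Itga2b at a ratio of 1.22 and 56.9% GC, above it.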

How the data were processed

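Polyadenylated RNA was sequenced in 2 libraries of 1 group, MEL cells after 5 days in 2% DMSO. The authors deposited unscaled expected counts, the estimated reads per gene and transcript, with TPM and FPKM scaled to length and library size, per the file headers. They also deposited posterior values, credibility bounds of a level not given in the sources used here, and the percent of each gene's TPM on each transcript. Reads were placed on mm10 and quantified with GENCODE M4, per the submitters' processing notes. The program and aligner were not given in the sources used here.

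Symbols and coordinates came from GENCODE M21 on the same assembly, and 42462 of 43346 genes matched by Ensembl ID. Rows that name no gene held 0.0296% and 0.0465% of reads in replicates 1 and 2 and stayed out of the count methods. With no reads, a gene could reach 0.115 and 0.212 CPM (3 counts). TMM factors were computed from rounded expected counts with edgeR 4.0.16 (R 4.3.3). The ratios used unrounded expected counts, scaled by these factors, with a prior count of 1, and the counting intervals used rounded counts. With 1 library against 1, no ratio has a p-value, and counting intervals were at 95%. For the GC trend, lowess with a span of 0.3 and 3 iterations was run on protein-coding genes that averaged 100 counts or more and had a GC value. Of genes of any type with that average, 98.8% had a GC value. The steps were tested on simulated data. Other steps used Python 3.11.15, pandas 2.3.3, numpy 2.4.6, scipy 1.17.1, statsmodels 0.14.6 and matplotlib 3.10.9.

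The genes and lists were chosen with earlier results of these data known. Named were the 9 genes and Itgav. From each other megakaryocyte and platelet list and from the integrin subunits, the 4 highest and 2 lowest by mean TPM were named. So was the nearest protein-coding gene on each side of each of the 9, with overlapping genes left out. The 3 highest markers of each other cell type were named too. A few of these are left out of the text. Alternatives were other detection limits, units, scalings with DESeq2 1.42.0 among them, prior counts, filters, transcript shares by reads and each library alone.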

Additional observations from a re-analysis of the deposited data

How the results depend on the processing

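Depth limits the genes under 20 reads most, Itgb3 and Gp1bb, and with 2 libraries no difference has a test. Of 37 alternative values of the main summaries, 31 stayed close to the value reported. Close meant within the SD of the 2 libraries for levels and shares, and within a fixed fold limit for counts and percents. A library alone always lies within that SD, so single-library levels and shares were bound to be called close and say nothing of stability. At 2 TPM in both libraries 4 of the 9 genes were detected, and at 5 TPM 2 were, in place of 6. The share of all protein-coding genes was not counted at these limits or with either library alone. Nor was it counted with total counts, deposited TPM or no filter before TMM. The median level of the 9 was 3.57 TPM, in place of 2.15 TPM, when TPM was rescaled over protein-coding genes that are not mitochondrial. The number of the 9 at least 2-fold apart between libraries was 3 with TMM, 6 with total counts, 2 with deposited TPM, 2 with no filter before TMM and 1 with the GC trend removed, and the share of protein-coding genes that far apart fell to 12.3% without the trend, against 28.7% with it. Itga2b-205 held 40.9% of Itga2b TPM on average and 14.1% by reads. With each library alone, 6 genes were detected in either, 52 to 57 of the 91 other genes were, the median level ran from 1.44 to 2.85 TPM, and the Itga2b-205 share from 28.0% to 53.8%. On coding transcripts alone, chosen after the data were seen, 5 were detected. Of 101 alternative values for single genes, 80 stayed close and 21 moved, with ratios called close inside their counting interval. Here too the single-library levels and shares were bound to be called close.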

Other observations

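The nearest protein-coding gene on each side of each of the 9 was read as well, with genes that overlap the member left out. Beside Itga2b, Fam171a2 stood at 1.87 and 3.20 TPM in replicates 1 and 2 and Gpatch8 at 51.8 and 47.3 TPM. Beside Pf4 lie 2 other chemokine genes: Ppbp, whose product platelets also store, stood at 0.12 TPM in replicate 1 with no reads in replicate 2, and Cxcl3 had no reads in replicate 1 and 0.15 TPM in replicate 2. Pf4 was thus the 1 gene of these chemokine neighbours with a level above 1 TPM. Beside Gp1ba, Slc25a11, a mitochondrial carrier, stood at 8.66 and 18.7 TPM and Chrne at 1.60 and 2.12 TPM. Beside Treml1, which had no reads, Trem2 had none either, while Nfya, a subunit of the factor NF-Y on its other side, stood at 91.0 and 183 TPM. Beside Itgb3, Myl4 stood at 0.46 and 0.35 TPM and Gm11639 at 0.03 TPM with no reads in replicate 2. Beside Gp9, Efcc1 stood at 0.70 and 0.49 TPM and Rab43 at 5.42 and 7.19 TPM. Beside Gp5, Lrrc15 stood at 0.02 and 0.01 TPM and Atp13a3 at 25.6 and 18.8 TPM. Gp1bb is overlapped by Sept5, at 37.4 and 47.1 TPM. Of its neighbours that do not overlap, Tbx1, 29645 bases away, stood at 0.02 TPM with no reads in replicate 2. On the other side Cldn5, 154443 bases away, had no reads in either library. Beside Vwf, Ano2 had no reads and Cd9 stood at the levels given for receptors.

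Markers of other blood cells gave mostly low levels, with lower shares detected than the 45.5% of all protein-coding genes. Of 12 granulocyte and macrophage markers 2 were detected, led by Prtn3, a granule protease, at 6.11 and 19.8 TPM in replicates 1 and 2, and their sum was 10.7 and 29.4 TPM. Cd68 stood at 3.17 and 5.66 TPM and Itgam at 0.85 and 2.74 TPM. Of 10 mast cell and basophil markers 0 were detected, with Hdc highest at 0.31 and 0.38 TPM. Of 9 stem and progenitor markers 1 was detected, Hlf, at 9.43 and 8.79 TPM. Of 12 lymphocyte markers 1 was detected, Lck, at 2.62 and 4.02 TPM. The part of such cells in the platelet gene levels was not tested.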
